A study of Oryza sativa with 6 samples.

Results

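The calcium sensor genes described here are the rice calmodulins (CAM), calmodulin-like proteins (CML) and calcineurin B-like proteins (CBL). A gene was taken as a member if its symbol or a synonym in the reference is CML, CAM or CBL followed by a number, with or without an Os prefix. The reference names 38 such genes. Of these, 33 had a probe set listing them alone, out of 17905 genes with such a probe set, and each was read from its probe set with the highest mean signal. They are 3 calmodulins, 23 CML genes and 7 CBL genes. For CML2, CML21, CML22, CBL1 and CBL7 the annotation lists no probe set of their own, and they were not analysed here. Membership rests on names alone, and CBL5 is also listed as CBL2, a name that another gene holds by itself.

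BA-treated samples were detached leaves (the third leaf) of N22 (Nagina 22), a drought- and heat-tolerant rice cultivar, that stood for 72 h in darkness with 2 mg/ml of the cytokinin 6-benzyl adenine (BA). Untreated leaves were kept in the dark in the same NaOH and Tween 20 solution without BA. The plants were 30 days old, each group has 3 arrays from 3 biological replicates, and both groups share the detachment and the dark-induced senescence (DIS). A field of the sample labels gives 2 h in place of 72 h, and no array of a leaf before darkness was analysed, so "lower" and "higher" mean lower and higher with BA than without it at 1 time point.

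Calcium sensors are proteins that bind calcium through a helix-loop-helix called the EF-hand and change shape when the calcium level in the cell rises. Calmodulins then bind and regulate many other proteins, CML proteins are a larger and more varied family of the same build, and CBL proteins bind and activate a family of kinases, the CBL-interacting protein kinases (CIPK). Calcium signals follow wounding, cold, drought, salt and some hormones, and in leaves members of these families take part in the responses to such stresses.

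The deposited signals had a lower limit of 16 on each array and a median of 22.5 to 23.3, and are given here on their linear scale; log2 changes are of log2(signal + 1) and understate the change of genes near that limit. Of the marker lists, 4 leaf mesophyll genes read 28.7 to 2126 over the 6 arrays, 5 root genes 16.2 to 81.3, 6 seed storage genes 16.4 to 167 and 2 anther genes 19.5 to 30.0, with 0, 3, 4 and 2 of them below 32 on every array. BA replicates 2 and 3 were nearer to each other than any other pair (SD of their log2 difference 0.16, against 0.416 to 0.615), and adjusted p-values rest on counting them as 2 samples. Untreated replicate 3 stood apart in the ribosomal controls, with a 28S rRNA signal of 346 against 28.4 to 47.1 on the other arrays, and was also the highest of the 6 arrays in all 12 poly-A spike controls. The leaf gene CAB2R read 762, 1585 and 1304 with BA, against 1928, 2126 and 582 without. Like CAB2R, 8 CML genes read low on untreated replicate 3. The other leaf marker genes were not the lowest there among the untreated arrays. The gene rca read 390, 408 and 376 with BA, against 173, 219 and 303 without. RBCS1 read 69.8, 59.8 and 58.9 with BA, against 43.2, 31.4 and 33.6 without. OsrbcS read 550, 117 and 89.0 with BA, against 229, 28.7 and 197 without. All 21 hybridization controls, transcripts normally added to each array in equal amounts, read lower on every BA array than on every untreated array, with a median log2 difference of -0.49, and the part of this in the lower values with BA was not tested. In whole leaves, fewer cells of a type and less RNA per cell cannot be told apart.

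A single calcium sensor gene, CML29, was lower in BA-treated than in untreated leaves at an adjusted p under 0.05 from limma, a call that 5 of 16 alternatives ended. CML1 lay lower and the calmodulin gene CAM1 higher on all BA arrays, with over 1.5-fold and an unadjusted p under 0.05 from limma, the study's thresholds, but neither passed after adjustment. For 28 of the 33 genes the groups overlapped. The median log2 change was -0.092 over the 33 genes and -0.004 over all 17905 genes, with 12 of the 33 above 0 and 21 below.

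**Figure D1:**
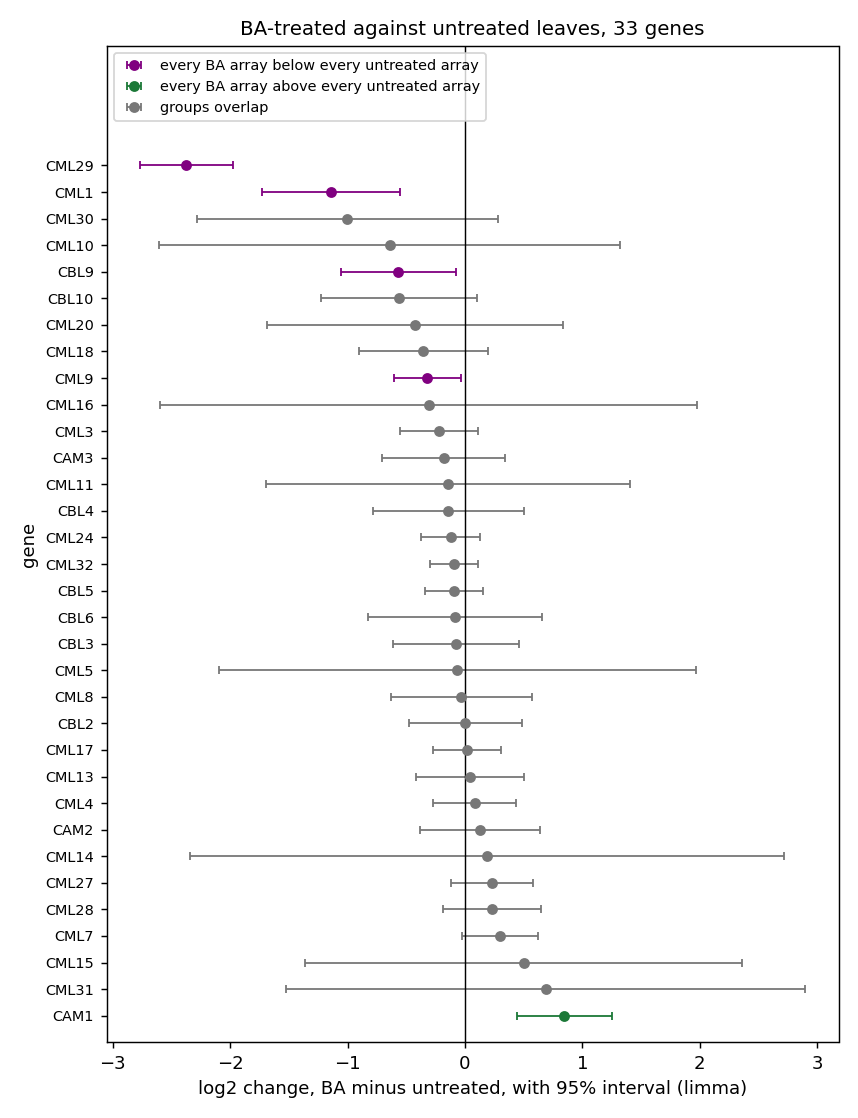
Log2 change of 33 calcium sensor genes, BA-treated minus untreated, with the 95% interval from limma. The x axis is the log2 change of log2(signal + 1) and each row is a gene; CML29 lies farthest left at -2.37, CAM1 farthest right at 0.85, and the intervals of CML5, CML10, CML14, CML15, CML16 and CML31 are the widest.

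CML29 encodes a calmodulin-like protein. Its signal was 63.2, 43.9 and 45.2 in BA-treated leaves, against 260, 244 and 289 in untreated leaves. Every BA array lay below every untreated array, by far more than the arrays of a group differed. The mean was 50.8 ± 10.8 with BA and 264 ± 23.1 without (SD, n = 3 arrays each). By limma this was -2.37 on the log2 scale, with a standard error of 0.16, a 95% interval from -2.77 to -1.98 and an adjusted p of 0.013, or 5.18-fold lower with BA. Its probe set is of the class designed to match a single transcript. It was 1 of 33 members called lower, where 24 of the 17905 genes read from their brightest probe set were called lower and 28 higher. Of all rice probe sets, 0.0664% were called lower and 0.0926% higher. By limma 0 members were called higher, and 1 (CAM1) was higher and 4 (CML29, CML1, CBL9 and CML9) lower with p under 0.05 before adjustment, where 6.42% of all genes were higher and 7.84% lower. The change stayed between -2.54 and -2.08 under the 16 alternatives tried, but 5 of them ended the call. The adjusted p from limma was 0.134 without BA replicate 2, 0.155 without BA replicate 3, 0.062 without untreated replicate 1, 0.145 with BA replicates 2 and 3 averaged and 0.066 with the replicate number as a block.

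CML1, also listed as OsCAM61, is a calmodulin-like protein with a long C-terminal tail that can be prenylated and so held at the plasma membrane. Its signal was 18, 19.3 and 18.1 in BA-treated leaves, against 58.1, 29.2 and 42.9 in untreated leaves. The BA arrays lay close to the lower limit of the signals, whereas the untreated arrays lay above it and differed widely among themselves. The log2 change was -1.14 (standard error 0.24, adjusted p = 0.21 from limma), and -0.76 with an offset of 16 in place of 1.

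Among the calmodulin genes the groups were separate for CAM1 and overlapped for CAM2 and CAM3. CAM1 had a signal of 1145, 1405 and 1352 in BA-treated leaves, against 612, 683 and 894 in untreated leaves. All BA arrays lay above all untreated arrays, and the log2 change was 0.85 (limma standard error 0.17, adjusted p = 0.18), or 1.80-fold. Without BA replicate 3 the adjusted p was 0.65. The reference lists CAM1-1, CAM1-2 and CAM1-3, rice genes that encode the same calmodulin, as synonyms of this 1 gene, so the signal cannot be given to a single locus. CAM2 read 635, 597 and 583 with BA, against 744, 418 and 544 without, and the BA arrays lay within the untreated range. CAM3 read 945, 760 and 761 with BA, against 1121, 680 and 1048 without, again within that range. Their log2 changes were 0.13 (95% interval -0.38 to 0.64) and -0.18 (95% interval -0.70 to 0.34), and the difference between the genes themselves was not tested.

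**Figure D2:**
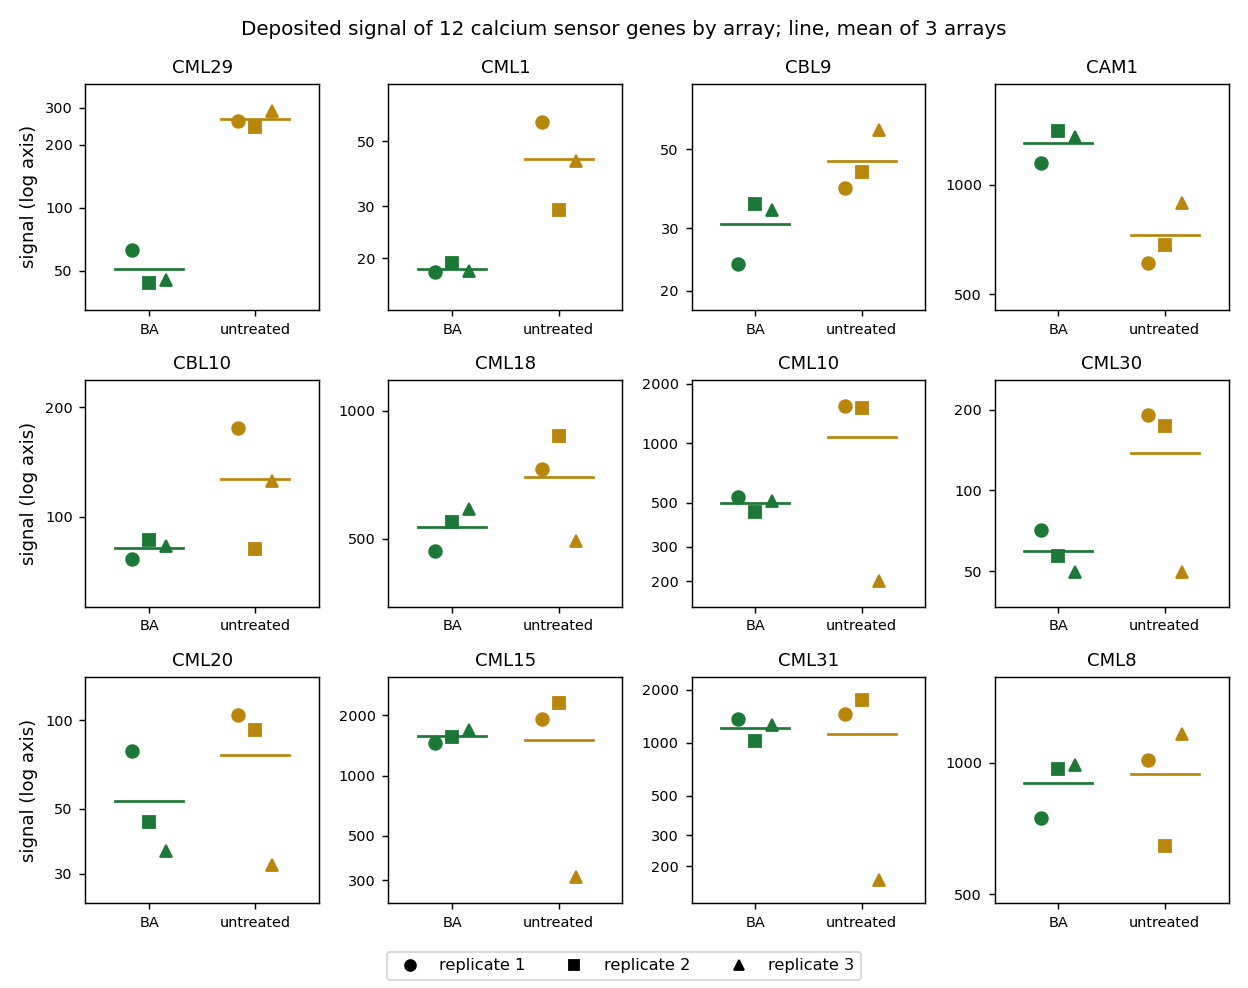
Deposited signal (log axis) of 12 calcium sensor genes on each array, BA on the left and untreated on the right of each panel, with the replicate shown by the symbol and the mean of 3 arrays as a line. The groups do not overlap for CML29, CML1, CBL9 and CAM1, and untreated replicate 3 (triangle) lies far below the other untreated arrays for CML10, CML30, CML20, CML15 and CML31.

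At the study's thresholds 1 member was higher (CAM1) and 2 lower (CML29 and CML1). Beside this stood 3.18% higher and 4.74% lower among all genes read from their brightest probe set, and 1.73% and 2.16% among all rice probe sets. The groups did not overlap for 1 member with BA above and 4 with BA below. The same held for 7.61% and 10.1% of all genes, and for 6.71% and 7.3% of all probe sets, so these counts are no result particular to the 33 genes.

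No CBL gene passed the test, and over all arrays none passed the study's thresholds. CBL9 passed them in 4 alternatives (BA replicates 2 and 3 averaged, and without BA replicate 2, BA replicate 3 or untreated replicate 1), and CBL10 without untreated replicate 2. CBL9, read from a probe set of the class open to cross-hybridization (_x_at), had a signal of 23.9, 35.1 and 33.6 in BA-treated leaves, against 38.8, 43.1 and 56.5 in untreated leaves. The groups did not overlap, although the highest BA array came close to the lowest untreated array. The log2 change was -0.57 (standard error 0.20, adjusted p = 0.51 from limma), and a second _x_at probe set of the gene gave -0.30 with overlapping groups. CBL10, whose Arabidopsis namesake acts in salt tolerance, read 76.6, 86.3 and 83.2 with BA, against 176, 81.6 and 125 without. Its BA arrays were alike, and untreated replicate 2 lay among them; without that array the log2 change was -0.85 (adjusted p = 0.21 from limma), against -0.56 (adjusted p = 0.69) over all arrays.

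CBL2 and CBL3, whose Arabidopsis namesakes sit at the vacuole membrane, had log2 changes of 0.00 (95% interval -0.48 to 0.48) and -0.07 (95% interval -0.61 to 0.46). CBL2 read 137, 164 and 155 with BA, against 166, 113 and 184 without. CBL3 read 466, 325 and 291 with BA, against 430, 303 and 395 without, so that its BA arrays spanned the untreated ones. CBL6 read 221, 286 and 280 with BA, against 302, 177 and 394 without, with the BA arrays inside the untreated range, as for CBL2. CBL4, the rice counterpart of the Arabidopsis salt-tolerance gene SOS3, and CBL5 had signals below 40 on every array and log2 changes of -0.14 and -0.09. In all, 6 of 7 CBL genes were below 0, with a median of -0.09.

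For 8 CML genes the untreated arrays differed widely among themselves. CML5, CML10, CML14, CML15, CML16, CML20, CML30 and CML31 read over 2-fold lower on untreated replicate 3 than on the mean of the other untreated arrays on the log2 scale. No CAM or CBL gene did so. That is 24.2% of the 33 genes, beside 5.97% of all 17905 genes, and no member read over 2-fold higher there (2.02% of all genes did). Each of the other arrays lay that far below the rest of its own group for at most 1 member. In the upward direction, untreated replicates 1 and 2 each lay over 2-fold above the rest of their group for 6 members (18.2%). The shares of all genes were 3.91% and 4.70%, and the rest of the group includes untreated replicate 3 in both cases.

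**Figure D3:**
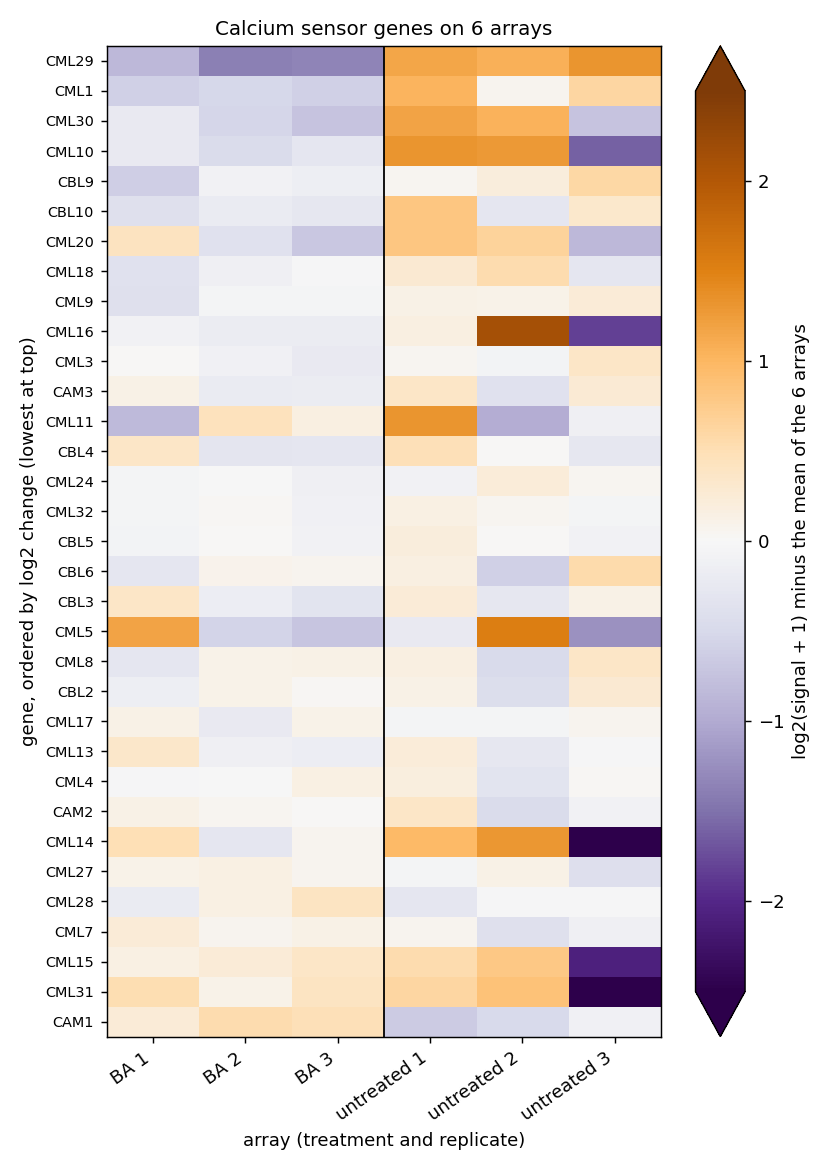
Log2(signal + 1) of 33 calcium sensor genes on 6 arrays, each minus the gene's mean over the arrays, with BA arrays left of the line and untreated arrays right of it. Rows run from the lowest log2 change (CML29) at the top to the highest (CAM1) at the bottom; colours end at 2.5 in either direction, and the lowest cells of untreated replicate 3 are those of the 8 CML genes named above.

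CML10 was among these genes. Its signal was 534, 451 and 508 in BA-treated leaves, against 1541, 1498 and 201 in untreated leaves. The BA arrays were alike and fell between the high and the low untreated arrays. Over all arrays the log2 change was -0.64 (standard error 0.80, adjusted p = 0.91 from limma). Without untreated replicate 3 it was -1.61 (adjusted p = 0.036 from limma), a call that rests on 2 untreated arrays.

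CML30 read 71.0, 57.2 and 49.9 with BA, against 190, 174 and 49.9 without. Untreated replicate 3 was at the level of the lowest BA array, and the other untreated arrays lay well above all BA arrays. The log2 change was -1.0 over all arrays (adjusted p = 0.73 from limma) and -1.62 without that array (adjusted p = 0.073). CML20 read 78.7, 45.0 and 35.9 with BA, against 104, 92.8 and 32.2 without, with BA replicate 1 nearer to the higher untreated arrays than to the other BA arrays. Its log2 change was -0.42 over all arrays and -0.95 without untreated replicate 3 (adjusted p = 0.46).

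CML15 and CML31 changed sign with that array. CML15 read 1461, 1566 and 1697 with BA, against 1915, 2302 and 311 without. Its log2 change was 0.50 over all arrays and -0.42 without untreated replicate 3 (adjusted p = 0.93 and 0.37 from limma). CML31 read 1368, 1029 and 1270 with BA, against 1461, 1757 and 166 without. Here the log2 change was 0.69 over all arrays and -0.40 without untreated replicate 3 (adjusted p = 0.92 and 0.51). For both genes the BA arrays lay below the higher untreated arrays and above the low one, so no direction can be given.

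The other 3 of these 8 genes are named after their values were seen. CML14 read 216, 126 and 160 with BA, against 300, 380 and 25 without, and its sign also turned, at 0.19 over all arrays and -1.04 without untreated replicate 3. CML16, which in rice takes part in ABA signalling, read 84.8, 79.0 and 79.3 with BA, against 102, 395 and 24.8 without, so that its untreated arrays ran from below to far above a tight BA group. CML5 read 114, 33.6 and 30.1 with BA, against 42.9, 147 and 20.8 without, and was uneven in both groups. Its second probe set ran the same way, at 82.5, 30.1 and 33.9 with BA, against 36.1, 122 and 19.4 without.

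All 8 genes lay below 0 without untreated replicate 3, at log2 changes from -1.62 to -0.40, whereas over all arrays 3 were above 0 and 5 below, with standard errors from 0.52 to 1.03. These genes were chosen for reading low on that array, so the downward shift when it is left out follows from the choice. Without that array 7 of the 33 members were lower at the study's thresholds (CML1, CML10, CML14, CML18, CML20, CML29 and CML30) and 1 higher (CAM1), beside 6.56% lower and 3.38% higher among all genes in the same fit. Each array was left out in turn, and this fit is described because the array stood apart in these genes, so the count is a description. The same array had the 28S rRNA signal of 346, and the part of its ribosomal signal in these low values was not tested.

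**Figure D4:**
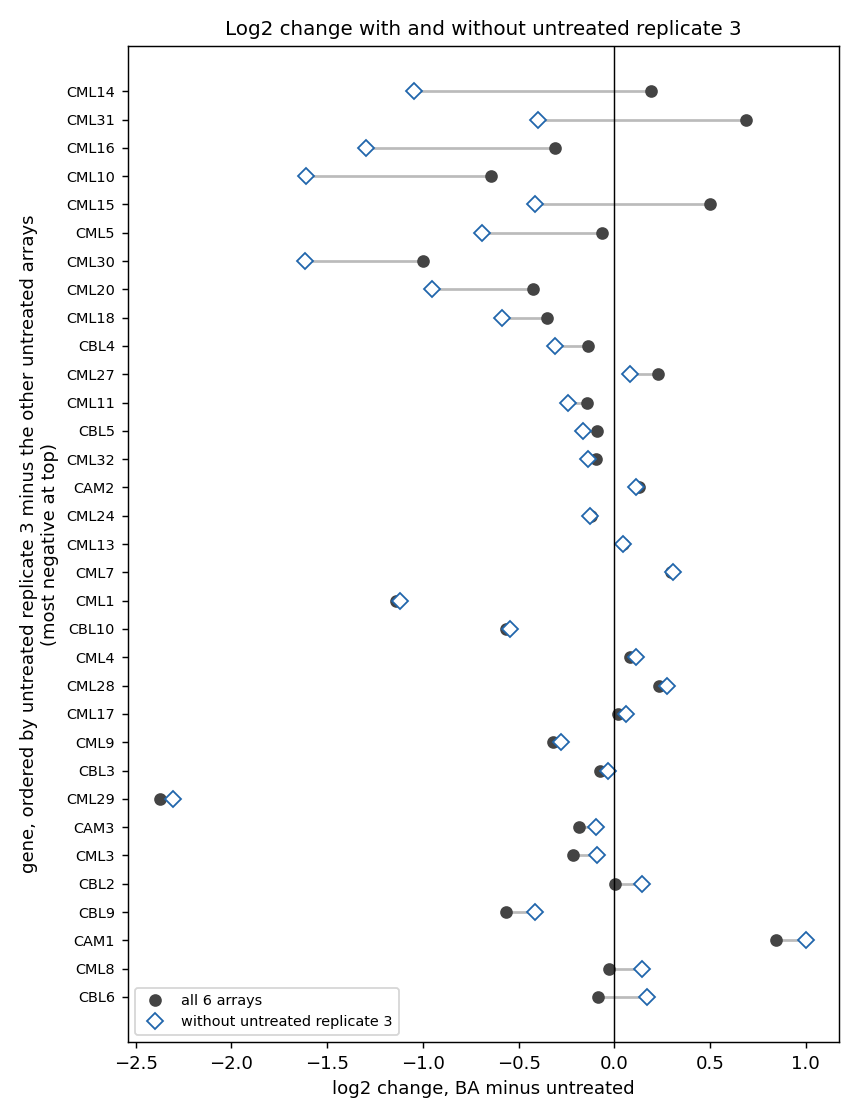
Log2 change of 33 calcium sensor genes, BA-treated minus untreated, over all 6 arrays (filled circles) and without untreated replicate 3 (open diamonds). Genes are ordered by how far that array lay from the other untreated arrays, so the downward shift of the 8 top genes follows from the order. These 8 all lie below 0 without it, CML14, CML15 and CML31 cross 0 downward and CML8 and CBL6 upward, and CML29 moves only to -2.31.

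Among the remaining CML genes only CML18 and CML8 belong to the rule for named genes, and the others are named after their values were seen. CML18 read 467, 548 and 586 with BA, against 729, 874 and 493 without. Untreated replicate 3 again lay among the BA arrays, and the log2 change was -0.35 over all arrays and -0.59 without it (adjusted p = 0.28 from limma). CML9, the neighbour of CAM2 in the reference assembly, lay lower on every BA array, at 55.2, 69.6 and 70.0 with BA, against 79.4, 77.5 and 85.8 without. The change was small, with a log2 value of -0.32 (95% interval -0.61 to -0.03, adjusted p = 0.53 from limma).

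CML8 read 746, 969 and 989 with BA, against 1015, 644 and 1164 without, and CML4, which in rice raises drought tolerance when overexpressed, read 892, 908 and 1009 with BA, against 1028, 727 and 923 without. The BA arrays lay within the untreated range for both genes, with log2 changes of -0.03 (95% interval -0.63 to 0.57) and 0.08 (95% interval -0.27 to 0.43). CML7 read 467, 410 and 432 with BA, against 412, 302 and 359 without, and only untreated replicate 1 reached into the BA range (log2 change 0.30, adjusted p = 0.64 from limma). CML11 differed more within the groups than between them, at 39.4, 95.9 and 79.5 with BA, against 177, 35.5 and 64.6 without. CML13, from an _x_at probe set, read 215, 155 and 150 with BA, against 195, 140 and 166 without, with a log2 change of 0.05 (95% interval -0.41 to 0.51).

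CML3, CML17, CML24, CML28 and CML32 stayed between 16.3 and 29.9 on all arrays, near the lower limit, with log2 changes from -0.22 to 0.23. At such signals a change of these genes could hardly be measured. CML3, whose protein binds a chromatin protein in rice, also overlaps the kinase gene CIPK32 in the reference assembly.

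A second probe set was at hand for 5 members. For CML27 the probe sets disagreed. The brighter read 582, 596 and 567 with BA, against 516, 584 and 405 without (log2 change 0.23). The other read 347, 441 and 419 with BA, against 705, 1085 and 138 without (log2 change -0.24), which is the pattern of CML10, low on untreated replicate 3 alone. Which of them follows CML27 cannot be told from the signals. For CML4 the dimmest of its probe sets read 48.9, 48.3 and 60.4 with BA, against 38.6, 33.3 and 23.5 without (log2 change 0.73, adjusted p = 0.35 from limma), whereas both bright probe sets had overlapping groups. The second probe set of CML10 read at most 22.1 on any array, near the lower limit.

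The other genes that pass on or set calcium signals were taken as a list by name, and 57 of 70 could be read. No gene matched the names searched for calmodulin-binding transcription activators, annexins, glutamate decarboxylase or the CNGC and OSCA channels, so these are not covered. The 57 genes hold 20 calcium-dependent protein kinases, which bind calcium themselves, 24 CIPK genes, 9 exchangers and pumps that remove calcium from the cytosol, and 4 others. By limma 0 of them were called, and before adjustment 5 were higher and 8 lower with p under 0.05, beside 6.42% and 7.84% of all genes. At the study's thresholds 1 was higher and 5 lower, beside 3.18% and 4.74%. The median log2 change was -0.132 for these genes, -0.092 for the sensors and -0.004 for all genes. Without untreated replicate 3 the order of the lists turned, with -0.092 for these genes, -0.162 for the sensors and 0.015 for all genes.

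CIPK29 read 262, 195 and 150 with BA, against 446, 421 and 358 without, the smallest p of the list. Every BA array lay below every untreated array, and the log2 change was -1.04 (limma adjusted p = 0.20). CIPK32, CIPK1, CPK3 and CPK21 had log2 changes of -0.80, -0.65, -0.85 and -0.76, and their groups did not overlap. For CPK21 the signals were 17.46, 16.75 and 16.71 with BA, against 31.85, 43.68 and 17.99 without. Its BA arrays and untreated replicate 3 thus lay near the lower limit, with little between them. CIPK21 was the 1 kinase higher at these thresholds, at 88.1, 106 and 94.1 with BA, against 71.2, 67.3 and 45.8 without. Without untreated replicate 3 it no longer passed them, so that 0 of the list were higher and 6 lower. In that fit 3.38% of all genes were higher and 6.56% lower. The 6 lower genes held 2 CIPK genes in place of 3 and 4 calcium-dependent kinases in place of 2. In all, 16 of 24 CIPK genes were below 0 and 8 above, and 14 of 20 calcium-dependent kinases were below 0. On untreated replicate 3, 6 of the 57 genes read over 2-fold below the other untreated arrays, or 10.5%. Among these were 4 of the 20 calcium-dependent kinases (20%) and 1 of the 24 CIPK genes (4.17%). The share was 24.2% for the sensors and 5.97% for all genes, so the low reading was not particular to the sensors.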

How the data were processed

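Total RNA of BA-treated and untreated N22 leaves was hybridised to 6 Affymetrix rice arrays. The authors deposited 1 intensity per probe set on a linear scale, from PLIER with a variance stabilization. RMA also stands in the submitters' processing notes; how it was used, the versions and any scaling of the arrays to each other are not stated in what was read here. Probe sets were named from the platform annotation, updated by gene identifier to the rice assembly ASM3414082v1. Intensities were compared as log2(signal + 1) with limma 3.58.1 in R 4.3.3 over 57258 rice probe sets (123 controls left out), with Benjamini-Hochberg adjustment and a threshold of 0.05. For this comparison the procedure was tested on simulated data over 57258 probe sets, where it recovered 26 of 100 probe sets changed by 1 and 59 of 100 changed by 2 on the log2 scale, with 4 false calls.

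The members and lists were chosen with earlier results of these data known. Values per array are given for members with an adjusted p under 0.05, those over 1.5-fold with an unadjusted p under 0.05, the 8 others of largest change above the median signal, the 4 of highest signal, and others named after their values were seen. Alternatives covered normalization, offset, spread estimate, array weights, dim or cross-hybridizing probe sets, averaging over all probe sets of a gene, the replicate block, each array left out, and BA replicates 2 and 3 averaged. The number of arrays limits the precision.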

Additional observations from a re-analysis of the deposited data

How the results depend on the processing

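CML29 was the member called in 11 of 16 alternatives, CML10 joined it without untreated replicate 3, and 0 members were called with BA replicates 2 and 3 averaged or with the replicate block (CML29 log2 change -2.29 and -2.37, adjusted p = 0.145 and 0.066 from limma). Before adjustment 1 member was higher and 4 lower with p under 0.05 in the averaged fit (all genes 3.95% and 5.54%), and 2 higher and 5 lower with the block (9.74% and 10.1%). Leaving out 1 array at a time gave 0 to 2 members called and 3 to 8 at the study's thresholds, with 8 without untreated replicate 3. The median log2 change of the members, -0.092, was -0.138 with array weights and ran from -0.167 to -0.008 with 1 array left out. Over all rice probe sets 91 were called as reported, 280 with array weights, 56 without probe sets open to cross-hybridization, 0 with the averaging or the replicate block, and 0 to 142 with 1 array left out (0 without BA replicate 2 or 3). Whether the replicate numbers pair the arrays cannot be told from the signals. Deviations of same-numbered arrays correlated at 0.422, -0.013 and 0.423, and those of differently numbered arrays at -0.403 to 0.271. Without untreated replicate 3 the signs of CML15 (-0.417) and CML31 (-0.4) turned, and with 1 array left out these genes ran from -0.417 to 1.02 and from -0.4 to 1.30. CML8 turned to 0.116 with array weights and ran from -0.281 to 0.145 with 1 array left out. The other 9 members in the rule kept their sign in the 16 alternatives, or 15 for CBL9, which had no value without probe sets open to cross-hybridization. The causes of these shifts were not tested.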
